A study of Homo sapiens with 4 samples.

Results

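The genes described here encode 6 surface or secreted antigens of the prostate: FOLH1, STEAP1, STEAP2, TRPM8, ACP3 and PSCA. They were chosen by name, and their lamin B1 values were read from the entries that overlap each gene's hg19 interval and the 1 Mb on either side. The gene intervals overlapped 12 entries and the genes with their flanks 263, out of 71569 entries with a value in both cell lines. DNA bound by lamin B1 was immunoprecipitated from fixed chromatin and sequenced (ChIP-seq) in a pair of human prostate cancer cell lines. LNCaP and VCaP are both established lines derived from prostate cancer. Each line had 1 lamin B1 ChIP library and 1 input library made without antibody, so each of the 4 groups is 1 library. Both lines were grown continuously in medium with serum, LNCaP in RPMI and VCaP in a DMEM and F12 mixture, and neither was given a drug or hormone treatment per the labels. Cell line and medium cannot be told apart.

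Lamin B1 is a filament protein of the nuclear lamina, the mesh beneath the inner nuclear membrane. Chromatin recovered with it lies mostly in long lamina-associated domains, which are typically poor in genes and contain many weakly transcribed ones. The 6 genes are known for high expression in prostate epithelium or prostate cancer, and several respond to androgen. Gene expression was not measured in these libraries, so neither the identity of the lines nor the activity of the genes could be checked here.

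The value of an entry is the deposited log2 enrichment of ChIP over input, mostly in 40 kb bins, and the deposited state label is taken as associated or not associated with the lamina. Each deposited value behaves as a running mean over 3 entries, the last of which carries it, and this moves features about 40 kb towards higher coordinates. Distances from genes to domain borders are given as deposited, without correction for this shift. A gene's level is the mean of its entries weighted by the bases they share with the gene. The noise SD beside a level is taken from entries 3 apart over the whole genome, which share no averaged bin. It describes scatter within a library, including any true change between entries that far apart, and no value here has a replicate. For 1 entry it was 0.15 in LNCaP and 0.22 in VCaP. Where the averaging was undone, values were noisier, with SDs from neighbouring entries of 0.18 and 0.27. All entries of the 6 windows were 40 kb wide with no gap between them.

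Promoter sequences are shown for 4 genes. STEAP1 and STEAP2 lie in the same trough of lamin B1 signal, and TRPM8 and ACP3 lie elsewhere in the genome. All 6 genes lay below their flanks in both lines, so that trait does not set these 4 apart. The 250 bases before the first listed start were taken from RefSeq promoters of GRCh38.p14. PSCA was left out by plan, and FOLH1 had no match there. All 4 are on the plus strand, written 5′ to 3′ with each CG dinucleotide in capitals. The coordinates of this build are not those of the lamin B1 values.
STEAP1, chr7:90154219-90154468: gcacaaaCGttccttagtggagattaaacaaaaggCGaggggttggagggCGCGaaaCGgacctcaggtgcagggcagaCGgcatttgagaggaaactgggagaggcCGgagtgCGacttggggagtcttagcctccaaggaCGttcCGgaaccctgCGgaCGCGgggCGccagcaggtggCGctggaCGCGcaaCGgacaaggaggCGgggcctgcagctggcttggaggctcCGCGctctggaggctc
STEAP2, chr7:90211490-90211739: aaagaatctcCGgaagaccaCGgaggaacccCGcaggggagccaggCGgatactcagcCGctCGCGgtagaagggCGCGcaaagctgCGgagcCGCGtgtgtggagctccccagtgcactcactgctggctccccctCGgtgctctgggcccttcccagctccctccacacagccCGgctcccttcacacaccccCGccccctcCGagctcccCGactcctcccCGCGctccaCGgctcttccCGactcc
TRPM8, chr2:233917123-233917372: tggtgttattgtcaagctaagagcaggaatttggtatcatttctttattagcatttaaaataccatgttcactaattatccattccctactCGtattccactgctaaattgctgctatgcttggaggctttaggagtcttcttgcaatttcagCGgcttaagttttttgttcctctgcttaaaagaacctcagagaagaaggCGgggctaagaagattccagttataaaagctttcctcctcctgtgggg
ACP3, chr3:132317157-132317406: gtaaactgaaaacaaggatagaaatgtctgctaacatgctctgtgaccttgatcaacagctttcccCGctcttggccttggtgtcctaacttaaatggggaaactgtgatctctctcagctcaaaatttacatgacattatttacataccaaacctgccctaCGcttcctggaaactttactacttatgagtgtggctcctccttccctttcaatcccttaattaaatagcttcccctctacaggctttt

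The STEAP promoters held more CG dinucleotides than the median promoter and the other pair held fewer. TRPM8 has 6 listed starts and STEAP2 has 2, and only the first of each was read. STEAP1 and STEAP2 held 21 CG dinucleotides each, more than 69.8% of all promoters, with a G+C content of 64.4% and 69.6%. TRPM8 held 3, more than 22.9% of promoters, with 40% G+C, and ACP3 held 2, more than 14.7%, with 42.0% G+C. The median over 35116 promoters of the same length was 11 CG dinucleotides and 58.0% G+C. The motif TATAAA, searched on both strands, was present once, in TRPM8, and in 10.7% of all promoters. The hexamer AGAACA of the androgen response element, also searched on both strands, was in none of these 4 windows and in 12.4% of all promoters.

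Across the 6 genes, 5 lay below 0 in LNCaP and 5 in VCaP, and PSCA was the exception in both lines. These counts rest on values near 0: PSCA in LNCaP, at 0.04, was -0.02 with the line centred on its genome median, and TRPM8 in VCaP, at -0.02, was 0.15 in the entry of the gene start. Over all entries 43.1% were below 0 in LNCaP and 33.1% in VCaP. The median level of the 6 genes was -0.41 in LNCaP and -0.44 in VCaP, beside medians of 0.06 and 0.19 over all entries. In LNCaP 0 of the 6 genes were associated with the lamina, where 37.9% of all entries were. In VCaP 1 of 6 was, PSCA, where 44.4% of all entries were. STEAP1 and STEAP2 are neighbours 45 kb apart and are not separate observations.

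**Figure D1:**
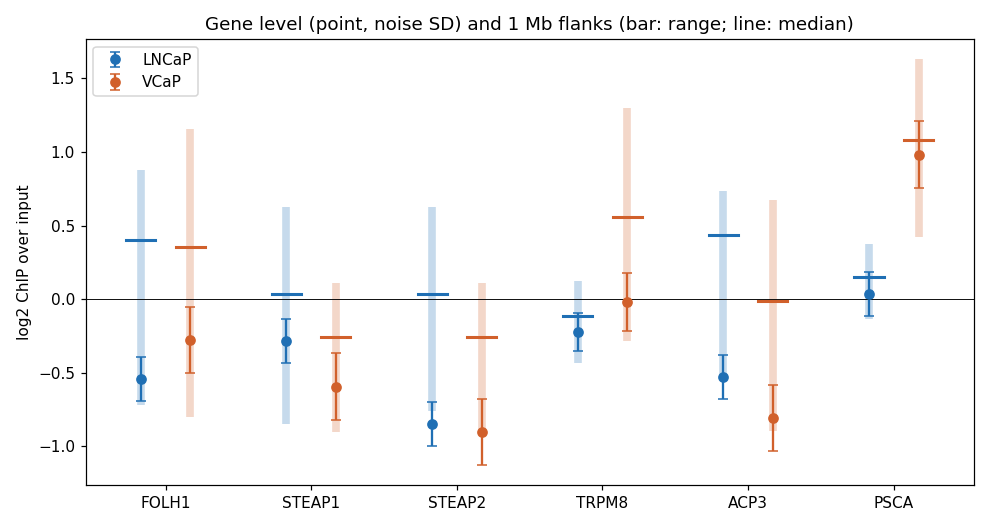
Log2 enrichment of lamin B1 ChIP over input (vertical axis) at the 6 genes in LNCaP (blue) and VCaP (orange). Points are gene levels with the noise SD, pale bars the range of entries in the 1 Mb flanks and short lines the flank median. Every point lies under its flank median, by as little as 0.10 at PSCA in VCaP and as much as 0.97 at ACP3 in LNCaP. With the averaging undone these gaps are -0.72 and -0.76, and that of FOLH1 in LNCaP is -1.30.

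All 6 genes were lower than the median of their own flanks in both lines, while about as many entries lie above as below their surroundings by construction: 49.5% of all entries in LNCaP and 49.8% in VCaP were lower than the median of the 25 entries on either side. STEAP1 and STEAP2 share most of their flank entries, so these are not 6 separate observations. The gaps of PSCA in both lines and of TRPM8 in LNCaP were smaller than the noise SD of the gene level. Lower gaps were found at 27.8% of all entries for PSCA in LNCaP, 34.1% in VCaP and 27.4% for TRPM8 in LNCaP. A gap of more than 0.5 was seen at 3 genes in LNCaP (FOLH1, STEAP2 and ACP3), against 2.44% of all entries. It was seen at 4 genes in VCaP (the same 3 and TRPM8), against 6.83% of all entries. With flanks of 0.5 Mb the VCaP count was 2, with FOLH1 at -0.40 and TRPM8 at -0.37 relative to the flanks. With the averaging undone it was 6, against 11.8% of all entries treated alike, and the LNCaP count was 4, against 5.08%. FOLH1, STEAP2 and ACP3 passed it in both lines, as did 1.06% of all entries. The size of 0.5 for this contrast was chosen with the data in view, and the background covers all entries, with or without genes.

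**Figure D2:**
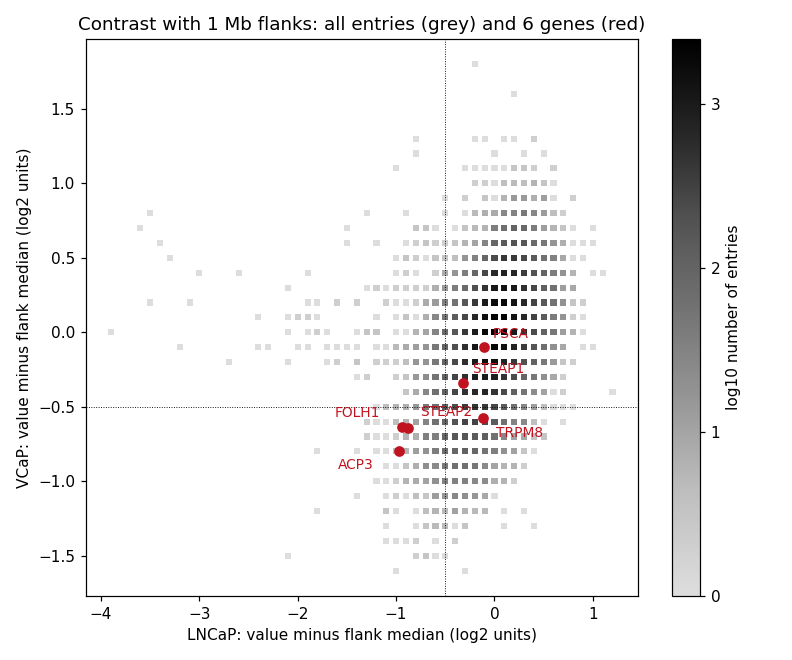
Value minus the median of the surrounding flanks in LNCaP (horizontal axis, log2 units) and VCaP (vertical axis, log2 units). Grey squares are counts of entries over the genome in steps of 0.1 on a log10 grey scale, red points are the 6 genes, and dotted lines mark -0.5. FOLH1, STEAP2 and ACP3 lie beyond both dotted lines, TRPM8 beyond that of VCaP only, and STEAP1 and PSCA beyond neither.

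FOLH1 encodes prostate-specific membrane antigen, a surface peptidase that releases glutamate and is the target of prostate cancer imaging agents and radioligands. It spans 63 kb on the minus strand of chromosome 11 from 49168000 to 49231000, and its nearest protein-coding neighbours in the annotation of GRCh38.p14 are TRIM64C and OR4C13. Its 2 entries had log2 values of -0.42 and -0.66 in LNCaP and -0.09 and -0.47 in VCaP. The gene level was -0.54 in LNCaP and -0.28 in VCaP, with noise SDs of 0.15 and 0.22. In LNCaP it exceeded 3.80% of windows of the same number of entries in the genome, and in VCaP 13.99%.

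FOLH1 sat in a gap between lamina-associated stretches in both lines. The flanks had a median of 0.40 in LNCaP and 0.35 in VCaP, and the gene lay 0.94 and 0.63 lower. FOLH1 stood at -1.30 relative to its flanks in both lines once the averaging was undone. The associated domain before the gene ended at the same position, 49080000, in both lines, 88 kb from the gene. The stretch outside the associated state was 480 kb long in LNCaP, up to 49560000, and 680 kb in VCaP, up to 49760000. The lowest deposited value of the window was in the same entry in both lines, 9 kb past the gene from 49240001 to 49280000, at -0.72 in LNCaP and -0.80 in VCaP. With the averaging undone, the lowest entry was again shared and lay within the gene, from 49200001 to 49240000, at -0.96 in LNCaP and -1.17 in VCaP. Then FOLH1 had a level of -0.87 (LNCaP) and -0.90 (VCaP). Both levels moved by more than 1.5 times. A near-identical partial copy of FOLH1 lies elsewhere on the chromosome, and how reads matching both were treated is not given in the sources used here.

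STEAP1 and STEAP2 encode related multi-pass membrane proteins of prostate epithelium. STEAP2 is a metalloreductase that reduces iron and copper, and STEAP1, a target of antibody-based drugs, lacks the reductase domain. STEAP1 spans 12 kb of chromosome 7 from 89783000 to 89795000 and STEAP2 28 kb from 89840000 to 89868000, each within 1 entry. Their deposited values share 1 of the 3 averaged entries, and their windows share 49 of 53 entries.

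Both STEAP genes were low in both lines, and STEAP2 was the lowest of the 6 genes in each. STEAP1 had a log2 value of -0.28 in LNCaP and -0.59 in VCaP. STEAP2 had -0.85 in LNCaP and -0.90 in VCaP, with noise SDs of 0.15 and 0.22. The STEAP2 entry was the lowest of the 51 entries of its window in both lines, and it exceeded 1.06% of entries in LNCaP and 0.559% in VCaP over the genome. STEAP1 exceeded 14.6% and 3.85%. With the averaging undone, STEAP1 was at -0.74 in LNCaP and -0.84 in VCaP, and STEAP2 at -1.10 and -1.49, still the lowest entry of the window in both lines.

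The surroundings of the STEAP genes differed between the lines on one side. On the side of lower coordinates, where ZNF804B and TEX47 precede STEAP1 in the annotation, 24 of 25 flank entries of STEAP1 were associated in LNCaP and 0 of 25 in VCaP. The median there was 0.47 in LNCaP and -0.15 in VCaP. Entry by entry the VCaP value was lower in all 25, by 0.42 to 0.89, and past 0.5 in 17. The LNCaP domain ran for 1240 kb from 88480001 to 89720000 and ended 63 kb before STEAP1. On the other side, towards CFAP69, 0 of 25 entries were associated in either line, and the medians were -0.21 in LNCaP and -0.34 in VCaP, with 0 of 25 entries past 0.5. The STEAP genes thus lay just outside a domain border in LNCaP, and in VCaP inside a stretch of 15720 kb without the associated state.

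TRPM8 encodes a calcium-permeable channel opened by cold and menthol, whose expression in the prostate responds to androgen. It spans 103 kb of chromosome 2 from 234826000 to 234929000, between MSL3B and SPP2 in the annotation. Its 4 entries had log2 values of -0.12, -0.22, -0.25 and -0.31 in LNCaP and 0.15, -0.12, 0.05 and -0.13 in VCaP. The level was -0.22 in LNCaP and -0.02 in VCaP, with noise SDs of 0.13 and 0.19. These exceeded 17.7% and 30.7% of windows of the same number of entries.

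TRPM8 stood apart from its flanks in VCaP and hardly in LNCaP. In LNCaP the flank median was -0.11, the gene lay 0.11 below it, and 0 of the 50 flank entries were associated. In VCaP the flank median was 0.56 and the gene lay 0.58 below it. There 16 of 25 entries before the gene and 23 of 25 after it were associated, and TRPM8 lay in an interruption of 600 kb from 234440001 to 235040000. That stretch was not low throughout: entries just before the gene had VCaP values of 0.35, 0.59 and 0.41. Some associated entries after the gene were lower, such as 0.21 and 0.25. In LNCaP the stretch outside the associated state was 7000 kb long. The lowest deposited entry of the window was not in the gene but 306 kb before it, in the same entry in both lines, at -0.43 in LNCaP and -0.28 in VCaP.

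ACP3 encodes prostatic acid phosphatase, a phosphatase secreted into seminal fluid, with a membrane-bound form, and a classical serum marker of prostate cancer. It spans 52 kb of chromosome 3 from 132036000 to 132088000, between CPNE4 and DNAJC13 in the annotation. Its 3 entries had log2 values of -0.65, -0.57 and -0.28 in LNCaP and -0.91, -0.85 and -0.51 in VCaP. The level was -0.53 in LNCaP and -0.81 in VCaP, with noise SDs of 0.15 and 0.22. It exceeded 3.75% of windows of the same number of entries in LNCaP and 0.743% in VCaP.

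ACP3 held the lowest deposited entry of its window in both lines, the one from 132000001 to 132040000, which shares 4 kb with the gene. The gene lay 0.97 below the flank median of 0.43 in LNCaP and 0.80 below that of -0.01 in VCaP. ACP3 stood at -0.76 in LNCaP and -0.77 in VCaP relative to its flanks once the averaging was undone. With the averaging undone the lowest entries lay before the gene, 76 kb away in LNCaP and 36 kb away in VCaP, and the level was -0.38 in LNCaP and -0.75 in VCaP. After the gene the associated domains of the lines nearly coincided. The domain ran from 132480001 to 133160000 in LNCaP and from 132560001 to 133200000 in VCaP. Before the gene, on the CPNE4 side, 23 of 25 entries were associated in LNCaP and 0 of 25 in VCaP, with medians of 0.41 and -0.03. VCaP was lower in all 25 of these entries, by 0.25 to 0.84, and past 0.5 in 9. The LNCaP domain there was 1120 kb long and ended at 131920000, 116 kb before ACP3.

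PSCA encodes prostate stem cell antigen, a small lipid-anchored surface protein of the Ly6 family. It spans 4 kb of chromosome 8 from 143761000 to 143765000, within 1 entry and 2.60 Mb from the chromosome end, between JRK and LY6K, another gene of that family. PSCA had a log2 value of 0.04 in LNCaP and 0.98 in VCaP, with noise SDs of 0.15 and 0.22. It was the highest of the 6 genes in both lines and exceeded 47.7% of entries in LNCaP and 96.1% in VCaP.

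The whole PSCA region was enriched in VCaP. The flank median was 0.15 in LNCaP and 1.08 in VCaP, and the gene lay 0.11 and 0.10 below it. PSCA stood at -0.45 in LNCaP and -0.72 in VCaP relative to its flanks once the averaging was undone, so the size of this gap depends on the averaging. In VCaP all 50 flank entries were associated, within a domain of 4200 kb from 142040001 to 146240000. In LNCaP 25 of 25 entries before the gene were associated and 0 of 25 after it, and the border at 143760000 lay 1 kb before the gene. That distance is finer than the 40 kb entries and is not corrected for the shift of about 40 kb. LNCaP values differed little across that border, with medians of 0.24 before and 0.08 after. With the averaging undone the PSCA entry itself was at -0.34 in LNCaP and 0.44 in VCaP. Both values depend on the averaging by more than 1.5 times and the LNCaP value changed sign.

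**Figure D3:**
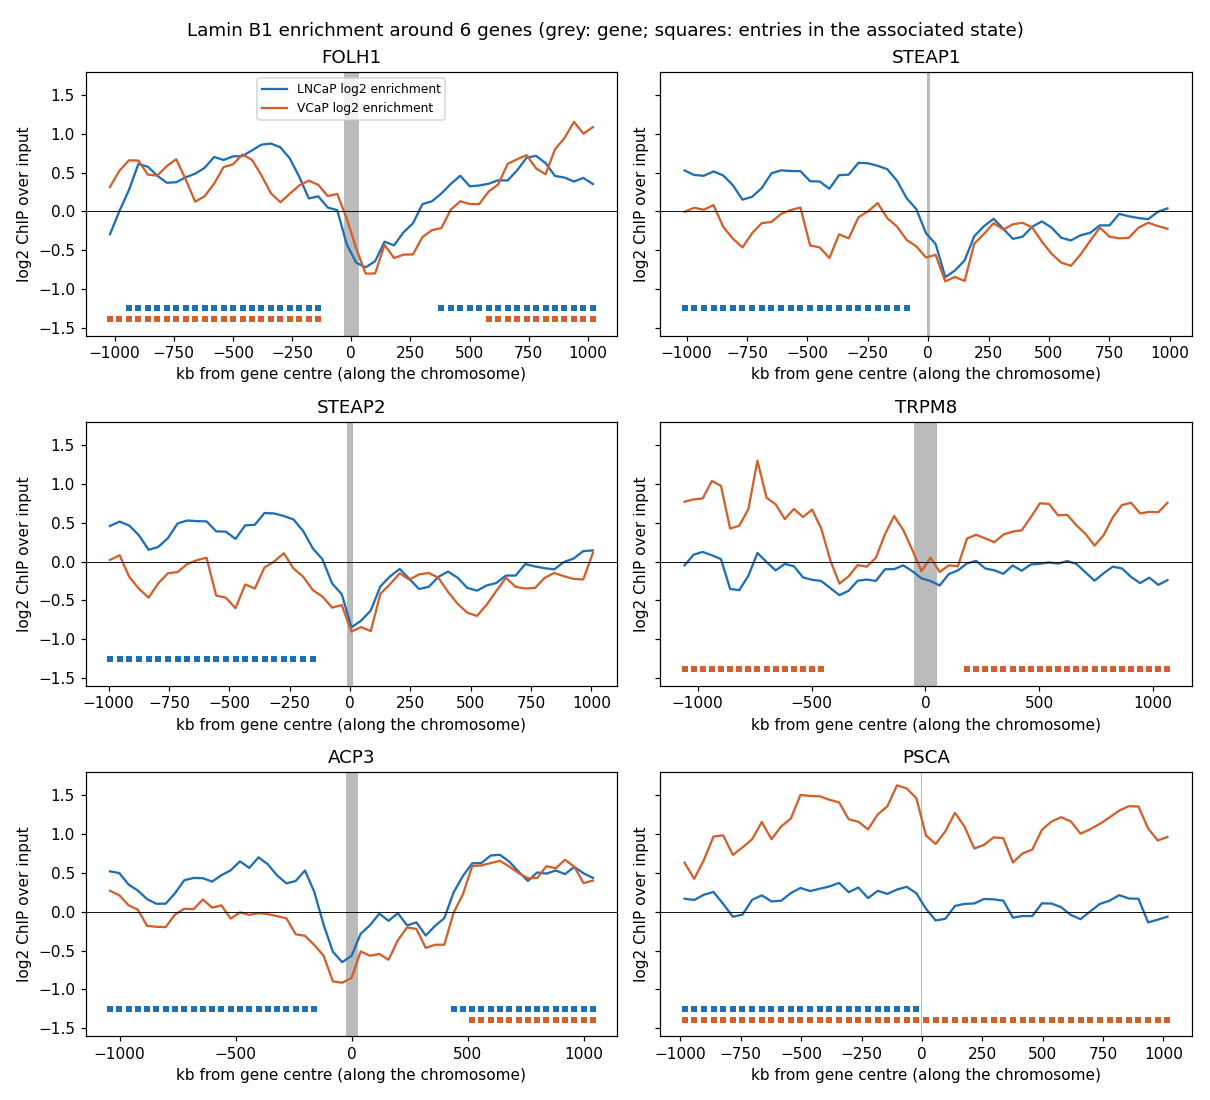
Deposited log2 enrichment of lamin B1 ChIP over input (vertical axis) against the distance from the gene centre in kb (horizontal axis) for LNCaP (blue) and VCaP (orange). Grey bands are the genes and squares mark entries in the associated state. Troughs at FOLH1, STEAP2 and ACP3 appear in both lines, the associated entries before STEAP1 and ACP3 are those of LNCaP, and VCaP is associated across the whole PSCA window.

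The difference between the lines was past 0.5 at 1 of the 6 genes, PSCA. Over all entries 21.3% were past it with VCaP higher and 9.32% with VCaP lower, so 1 of 6 is near the background. VCaP minus LNCaP was 0.94 at PSCA, 0.26 at FOLH1 and 0.21 at TRPM8. The FOLH1 difference changed sign, to -0.029, with the averaging undone. It was -0.05 at STEAP2, -0.27 at ACP3 and -0.31 at STEAP1. The noise SD of these differences was 0.20, or 0.17 for TRPM8 with its 4 entries. Apart from PSCA, the gene differences were thus within 2 of these noise SDs, which come from the whole genome. Taken within each window, the noise SD of 1 entry ran from 0.12 at ACP3 to 0.28 at FOLH1. By the SD of its own window, the ACP3 difference was past 2 noise SDs. The median over the 6 genes was 0.08, beside 0.10 over all entries. At PSCA the difference was nearly that of its surroundings, where the flank medians of the difference were 0.95 before and 1.03 after the gene. The median difference over chromosome 8 was 0.18.

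In the deposited values, the lines differed less at STEAP1, STEAP2, TRPM8 and ACP3 than in the flank before each gene, and more at FOLH1. The median difference was -0.59 before both STEAP genes, against -0.31 at STEAP1 and -0.05 at STEAP2. Undoing the averaging made these values -0.61 before the genes, -0.10 at STEAP1 and -0.39 at STEAP2. After both STEAP genes the deposited median difference was -0.12, smaller in size than at STEAP1 and larger than at STEAP2. The median difference before TRPM8 was 0.71, against 0.21 at the gene. After TRPM8 the flank median of the difference was 0.52, and VCaP was higher by more than 0.5 in 17 entries before and 14 entries after the gene. At ACP3 the median difference was -0.39 before and -0.08 after the gene, and the gene value of -0.27 lay between them. With the averaging undone the ACP3 values were nearly equal, at -0.38 for the gene and -0.40 before it. Those of TRPM8 were then 0.31 and 0.63. FOLH1 went the other way, with 0.26 at the gene and medians of -0.03 before and -0.14 after it. With the averaging undone the FOLH1 values were -0.029 at the gene and 0.056 before it. These contrasts between gene and flank were not tested.

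**Figure D4:**
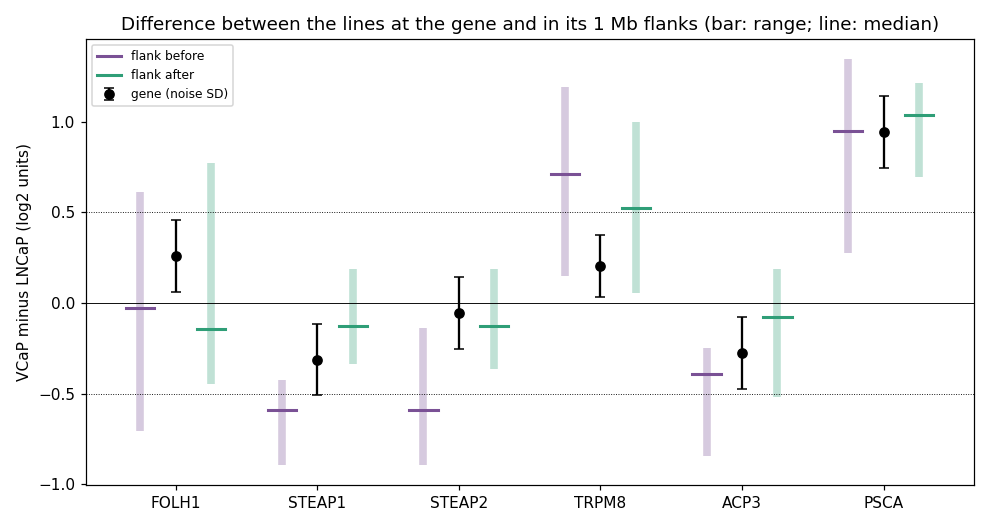
VCaP minus LNCaP difference in log2 enrichment (vertical axis) at each gene (black point with the noise SD) and in the 1 Mb before (purple) and after it (green), with bars for the range of entries and lines for the median. Dotted lines mark a difference of 0.5 in either direction. Of the black points only that of PSCA, at 0.94, lies beyond them.

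From low to high, the order of the genes was STEAP2, FOLH1, ACP3, STEAP1, TRPM8 and PSCA in LNCaP. It was STEAP2, ACP3, STEAP1, FOLH1, TRPM8 and PSCA in VCaP. STEAP2 was lowest and TRPM8 and PSCA were highest in both orders. No neighbours in the LNCaP order differed by more than 2 noise SDs of their difference. In VCaP the step from TRPM8 to PSCA, of 1.00, was larger than 2 noise SDs of their difference, 0.59. The other 4 steps were not larger than their own 2 noise SDs.

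Within the windows the profiles of the lines were positively correlated, as a description over entries that share averaged bins. Other windows of the genome were not correlated in this way, so a likeness particular to these windows cannot be read from the values. Pearson r between LNCaP and VCaP was 0.84 for ACP3 (53 entries), 0.73 for STEAP1 (51), 0.71 for FOLH1 (52), 0.70 for STEAP2 (51), 0.62 for TRPM8 (54) and 0.57 for PSCA (51). Spearman rho ranged from 0.55 at TRPM8 and FOLH1 to 0.79 at ACP3. Of the 263 entries 72 were associated in both lines, 54 in LNCaP only, 67 in VCaP only and 70 in neither. Those are 27.4%, 20.5%, 25.5% and 26.6%, beside 20.6%, 17.2%, 23.8% and 38.4% of all entries. The LNCaP-only entries lay in the windows of FOLH1, the STEAP genes and ACP3, and the VCaP-only entries in those of FOLH1 (2 entries), TRPM8 (39) and PSCA (26). Entries associated in both lines lay only in the windows of FOLH1 (33), ACP3 (14) and PSCA (25).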

How the data were processed

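Lamin B1 ChIP and input libraries of LNCaP and VCaP were compared, 1 of each per line. The deposited log2 values are enrichment of ChIP over input of the same line, per the labels and table names. The submitters' processing notes name STAR and hg19 with no role, and scaling, filters and smoothing are not given in the sources used here. The deposited state labels come from a hidden Markov model, as the table name says. Read depth was not analysed here, so no counting interval is given. 

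Chromosomes start with 2 entries without a value. The running mean of 3 entries was undone by differencing, with the free offsets set so that the 3 interleaved series share a median, and this was tested on simulated data. Noise is the median absolute difference of entries 3 apart, scaled by 1.4826 to an SD. It was divided by the square root of 2, and for a gene of more than 3 entries by that of their number over 3. A gene counts as associated where over 50% of its interval is, and a difference between lines counts beyond 0.5. No test over replicates was possible. Alternatives covered averaging, entries used, centring, quantile normalization, thresholds and flank sizes. The members, lists and thresholds were chosen with earlier results of these data known. The genes named for their values are the 6 members. Neighbours are given by name only, as the RefSeq gene table used is of another build, GRCh38.p14, and related genes planned for the windows are not analysed here for the same reason. Analyses ran in Python 3.11.15 with matplotlib 3.10.9, scipy 1.17.1, pandas 2.3.3 and numpy 2.4.6.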

Additional observations from a re-analysis of the deposited data

Results flagged for a closer look

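For 5 flanks the median of the entries lay on opposite sides of 0 in LNCaP and VCaP. Each line is 1 library, and the difference was not tested. VCaP minus LNCaP of the medians was -0.62 before STEAP1 and -0.66 before STEAP2, which share most of their entries, and -0.44 before ACP3, each above 0 in LNCaP and below 0 in VCaP. The VCaP median before ACP3, -0.03, is close to 0. At TRPM8 the difference was 0.69 before the gene and 0.58 after it, below 0 in LNCaP and above 0 in VCaP.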

How the results depend on the processing

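The alternatives gave 203 values for 45 results, and none of the called values changed sign. Undoing the averaging moved the difference between the lines to -0.10 at STEAP1, -0.39 at STEAP2 and -0.029 at FOLH1, where its sign changed and where it had not been past 0.5. The number of genes past the required difference was 4 at a size of 0.25 and 0 at a size of 1. In LNCaP 1 gene, PSCA, counted as associated when any enrichment over 0 sufficed. In VCaP the number of genes more than 0.5 under their flanks was 2 with flanks of 0.5 Mb, 2 with the flank after the gene alone and 6 with the averaging undone, which took the LNCaP number from 3 to 4. The last 2 choices were added after seeing the data. Pearson r moved to 0.62 for ACP3 with flanks of 2 Mb, and to 0.85 for FOLH1 and 0.81 for PSCA with flanks of 0.5 Mb. The cause was not tested. Of the other values that answer a comparison, 72 did not move. Among gene levels and gaps to the flanks, 31 moved and 89 did not. No paired analysis was possible because there is 1 library in each group. Read depth is not known, so noise within a library is the limit on a gene of 1 entry.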
